A study of Arabidopsis thaliana with 6 samples.

Results

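AT1G19200 and AT1G22160 are members of the FLZ (FCS-like zinc finger, DUF581) family of Arabidopsis thaliana, and they differed in opposite directions between leaves of the phosphate-deficient mutant pho1 and wild-type leaves. Each is the single gene listed for 1 probe set (several short probes summarised in a single value), so the pair makes up 2 of the 13286 loci that have a probe set of their own among 22810 probe sets. Both were chosen for their difference between pho1 and wild type in these same arrays. That difference is therefore given here as a description, with no test. Total RNA was hybridised to ATH1 arrays, 1 sample per array, with 3 arrays of wild-type Col-2 and 3 of pho1, an EMS (chemically induced) mutant with Col-2 as its genetic background. Both groups were rosette leaves at growth stage 3.90 from a growth room at 24 °C, 80% humidity and a 16 h photoperiod, on 0.8% agar with MS salts and 1% sucrose. The labels name no backcross of the mutant nor the plants or trays behind each replicate, so the spread between arrays may be technical. No probe set is paired with PHO1 here, and its transcript is not analysed.

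FLZ proteins are plant proteins with a short zinc-binding domain, and many of them bind the kinase SnRK1. SnRK1 is active when sugar or energy runs short and slows growth, whereas the kinase TOR is active when nutrients are plentiful and promotes growth. PHO1 passes phosphate into the xylem in the root, so pho1 shoots are short of phosphate even when the medium supplies it. The plants here grew on a medium with sucrose.

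AT1G19200 was at very low signals in wild type and far higher in pho1. Its MAS5 signal (a linear intensity per probe set) was 11.7, 6.2 and 7.4 in wild type replicates 1, 2 and 3. In pho1 it was 203.6, 382.9 and 502.2. Every pho1 array thus lay above every wild-type array, and pho1 replicate 1 was the lowest of the mutant arrays. The group means were 8.43 ± 2.89 in wild type and 362.9 ± 150.3 in pho1 (SD, n = 3 each), a ratio of 43.0. On the scale of log2(signal + 10), where 10 is an offset that damps the noise of dim probe sets, the difference was 4.26. By replicate number it was 3.30, 4.60 and 4.88. All 3 wild-type signals lay under the limit of 17.4 that a probe set's mean had to reach to be tested, so the gene entered the tested set through its pho1 signals. With wild-type values this low, the ratio depends strongly on the dim side. The offset makes the log2 difference smaller, so the size of the change is uncertain on either scale.

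AT1G22160 differed the other way and from a level well above that limit. Its signal was 251.8, 172.4 and 142.8 in wild type replicates 1, 2 and 3, and 88.9, 50.1 and 57.2 in pho1. Every pho1 array was lower than every wild-type array, and replicate 1 was the highest of its group in both genotypes. The means were 189 ± 56.4 in wild type and 65.4 ± 20.7 in pho1 (SD, n = 3 each), a wild-type level 2.89 times that of pho1. The log2 difference was -1.40, and by replicate number it was -1.40, -1.60 and -1.19. Replicate 1 exceeded the mean of replicates 2 and 3 by 0.65 in wild type and by 0.64 in pho1 on the log2 scale. The 2 genotypes thus kept nearly the same distance in replicate 1 although both levels were raised there. In whole leaves, fewer cells that express a gene and less transcript per cell cannot be told apart.

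**Figure D1:**
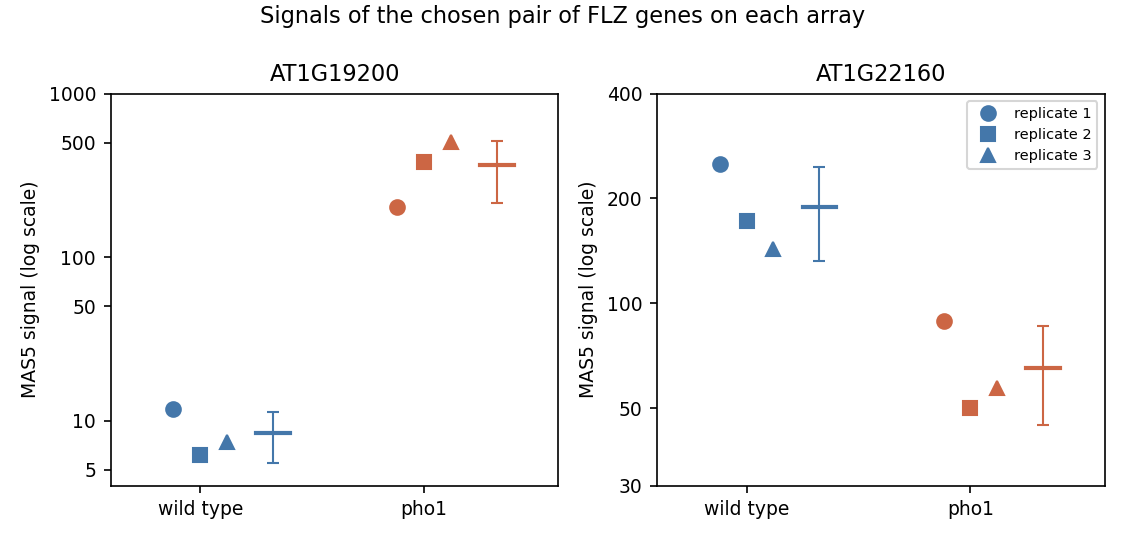
MAS5 signal (log axis) of AT1G19200 and AT1G22160 on each of the 6 arrays, with marker shapes for replicate numbers and horizontal bars with whiskers for the group mean and SD (n = 3). AT1G19200 lies between 6.2 and 11.7 in wild type and between 203.6 and 502.2 in pho1, and AT1G22160 between 142.8 and 251.8 in wild type and between 50.1 and 88.9 in pho1.

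The groups overlapped for neither gene. This was also true of 19.8% of all tested probe sets, 10.8% with pho1 higher and 9.01% with pho1 lower, and nothing is read from it for a pair chosen on this contrast. Between the arrays of the 2 genes the Pearson correlation was -0.92 over 6 arrays. It mostly restates that each gene separates the groups. Within pho1 the order of the arrays also ran opposite at replicate 1, which was lowest for AT1G19200 and highest for AT1G22160. Within wild type it did not, as replicate 1 was highest for both genes (11.7 and 251.8).

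Both replicate 1 arrays stood apart. The median signal of 12 bacterial spike-in control probe sets lay between 52.4 and 92.8 on 4 arrays, but at 4.00 for replicate 1 of wild type and at 2.15 for replicate 1 of pho1. The labels name no batch, and the part of this in the results was not tested. Without both replicate 1 arrays the difference was 4.74 for AT1G19200 and -1.39 for AT1G22160. The leaf genes RCA (Rubisco activase), LHCB4.2 (a light-harvesting protein) and SBPASE (a Calvin cycle enzyme) had signals of at least 1194.5 on every array. Only these 3 of the 11 listed leaf mesophyll markers had a probe set of their own. SBPASE was lower in pho1 in 3 of 3 replicate numbers (-0.07, -0.77 and -0.83). Its log2 difference was -0.56 over all arrays (limma adjusted p = 0.39). In replicates 2 and 3 alone it was -0.80 (limma adjusted p = 0.019), where 9.26% of all tested probe sets passed as lower. RCA differed by 0.03 and LHCB4.2 by 0.28, and neither passed in either fit. The root gene PYK10 was at 190.5, 173.1 and 398.2 in wild type and 278.3, 571.1 and 457.3 in pho1, higher in 3 of 3 replicate numbers with overlapping groups (0.80, limma adjusted p = 0.35, and 0.10 in replicates 2 and 3 alone). EXPA7, a root hair expansin, was too dim to be tested, at 4.4 to 31.3. Neither of the marker pair for guard cells and trichomes passed the test. TRY was lower in pho1 in 3 of 3 replicate numbers (-0.54, limma adjusted p = 0.35). Its groups lay just apart, as did those of 9.01% of all tested probe sets with pho1 lower. FMA differed the other way, by 0.28 (limma adjusted p = 0.53). The part of these markers in the FLZ differences was not tested. No flower or seed marker had a probe set of its own.

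The FLZ family has 18 loci in the list used here, and 13 of them have a probe set of their own. Apart from the chosen pair these are 11 genes, of which 10 were bright enough to be tested and AT5G49120, with signals of 6.3 to 15.5, was not. The RefSeq gene table names only a pair of the 18 loci, MARD1 and IRM1, and neither has a probe set of its own here. Of the 10 tested genes, none was called (limma, Benjamini-Hochberg adjusted p under 0.05 over all 15922 tested probe sets), where 2.96% of all tested probe sets were, 2.62% as higher and 0.345% as lower in pho1. At an unadjusted p under 0.05 there was 1 of the 10, AT1G78020, where 15.1% of all tested probe sets had such a p. The median log2 difference of the 10 was -0.47, against -0.021 over all tested probe sets, with 7 below 0 and 3 above.

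The replicate numbers were taken to pair the samples, since same-numbered arrays deviated together from their group means. The labels give only the numbers. Deviations of same-numbered arrays do not by themselves tell pairing apart from a shift shared by the replicate 1 arrays alone. Those of differently numbered arrays are not given here. The fit over all arrays carries no block. With the replicate number as a block, 2 of the 10 were lower in pho1 and none higher, where 1.69% of all tested probe sets were lower and 4.95% higher. In replicates 2 and 3 alone, 5 of the 10 were lower and 1 higher, where 9.26% of all tested probe sets were lower and 9.72% higher. With array weights, 4 of the 10 were lower and 1 higher, where 11.3% and 12.4% of all tested probe sets were. The count of the family therefore depends on how replicate 1 is treated.

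AT1G78020 had the lowest log2 difference of the family. Its signals were 297.7, 725.7 and 654.6 in wild type and 124, 243.9 and 200.4 in pho1 replicates 1, 2 and 3. The groups did not overlap, and replicate 1 was the lowest of its group in both genotypes. The means were 559 ± 229 and 189.4 ± 60.7 (SD, n = 3 each), and the log2 difference was -1.46 ± 0.37 (SE; limma adjusted p = 0.087). It passed with the replicate block (limma adjusted p = 0.0030) and in replicates 2 and 3 alone (-1.60, limma adjusted p = 8.8e-04). By replicate number the differences were -1.20, -1.53 and -1.66, so pho1 was lower in 3 of 3.

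AT2G44670 had signals of 163.1, 462.1 and 422.7 in wild type and 112.8, 247.6 and 235.7 in pho1. The pairs of every replicate number had pho1 lower, but the groups overlapped because wild type replicate 1 lay below pho1 replicates 2 and 3. The log2 difference was -0.73 (limma adjusted p = 0.50), and it passed with the replicate block (limma adjusted p = 0.037).

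AT5G20700 showed the same arrangement, with 358.9, 1032 and 903.2 in wild type and 298.1, 628.5 and 542.1 in pho1. Its log2 difference was -0.56 (limma adjusted p = 0.62), and it did not pass with the block (0.088). It passed in replicates 2 and 3 alone (-0.72, limma adjusted p = 0.016), as did AT2G44670 (-0.85, limma adjusted p = 0.0058).

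**Figure D2:**
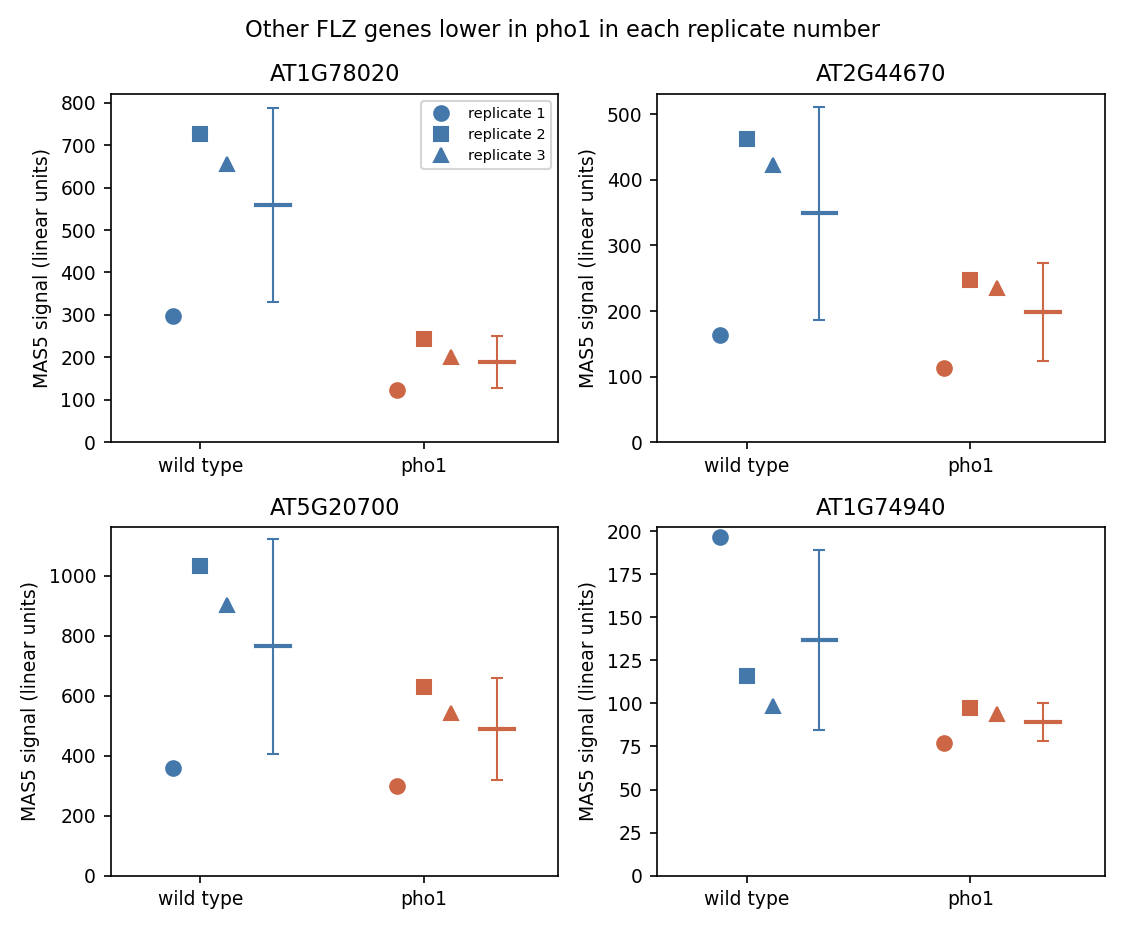
MAS5 signal (linear axis from 0) of the 4 tested FLZ genes outside the chosen pair that were lower in pho1 in each replicate number, with marker shapes for replicate numbers and bars with whiskers for mean and SD (n = 3). Replicate 1 is the lowest of its group in both genotypes for AT1G78020, AT2G44670 and AT5G20700, and the highest wild-type array for AT1G74940.

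AT1G74940 had the opposite lean by replicate. Its signals were 196.4, 115.8 and 98.7 in wild type and 76.9, 97.3 and 94.0 in pho1, which leaves the groups just apart. The log2 difference was -1.25 in replicate 1 but -0.23 and -0.06 in replicates 2 and 3, and the gene passed in none of the alternatives tried (limma adjusted p from 0.27 to 0.67).

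The remaining 6 tested genes had smaller or mixed differences. AT5G11460 differed by 0.15, -1.12 and -0.63 in replicates 1, 2 and 3, and AT3G22550 by 0.02, -0.54 and -0.79. Both were lower in replicates 2 and 3 alone (limma adjusted p = 0.033 and 0.023) and not over all arrays (0.40 and 0.49). AT2G25690 differed by -0.17, 0.60 and 0.55. It was the single one of the 10 that was higher in replicates 2 and 3 alone, at 0.58 (limma adjusted p = 0.036, against 0.67 over all arrays). AT1G79970 differed by -0.42, AT4G17670 by 0.24 and AT5G47060 by 0.20 over all arrays, and these 3 passed under no alternative. AT4G17670 and AT5G47060 were nevertheless above wild type in 3 of 3 replicate numbers.

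**Figure D3:**
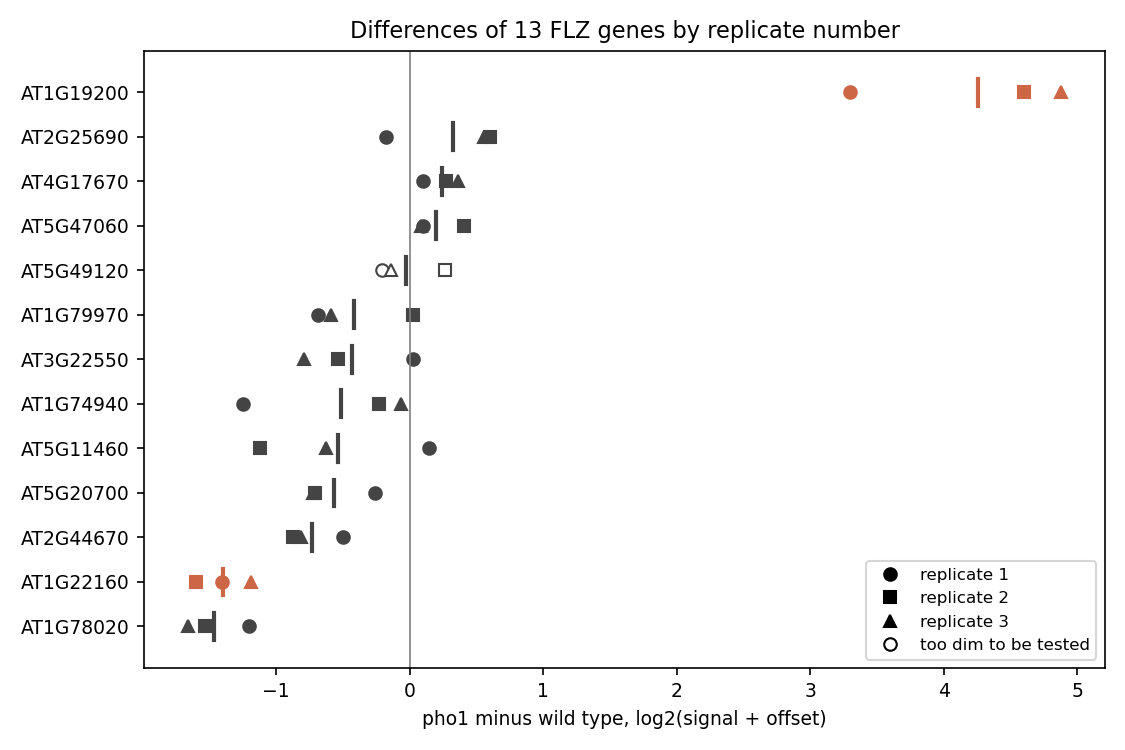
Difference between pho1 and wild type on the log2(signal + offset) scale for the 13 FLZ genes with a probe set of their own, 1 marker per replicate number and a bar for the difference of group means, with the chosen pair in orange and the gene too dim to be tested in open markers. AT1G19200 stands at 3.30 to 4.88, whereas the other 12 genes lie between -1.66 and 0.60.

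Across the family, 4 of the 10 tested genes were lower in pho1 in every replicate number and 2 were higher in every one, where 22.2% and 20.8% of all tested probe sets were. Replicate 1 was the lowest of its group in both genotypes for 7 of the 10 genes, where this held for 24.5% of all tested probe sets. These 7 were AT1G78020, AT2G25690, AT2G44670, AT3G22550, AT4G17670, AT5G20700 and AT5G47060. AT1G22160 had replicate 1 highest in both genotypes and so ran against them.

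A further probe set is listed for AT1G53903 and AT1G53885 together, and the transcripts of both family genes cannot be told apart on it. Its signals were 133.3, 13.8 and 30.1 in wild type and 187.3, 70.5 and 80.7 in pho1. The groups overlapped, with both replicate 1 arrays highest in their group. Its log2 difference was 1.13 (limma adjusted p = 0.46). It passed with the replicate block (limma adjusted p = 0.042), and pho1 was higher in 3 of 3 replicate numbers. Next to AT1G19200 it was the family's highest difference, and it is in none of the counts above.

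Few genes of the SnRK1 and TOR kinase complexes were tested, and none of those was called. None of them encodes the kinase subunit itself, so nothing is said here of the transcripts of the kinases. Of 9 SnRK1 entries 3 had a tested probe set, with a median log2 difference of -0.21, and none passed at an unadjusted p under 0.05 either. Their members with the smallest p were AT2G28060 at -0.22 and AT4G16360 at -0.21 (limma adjusted p = 0.64 and 0.70). The TOR list had 8 entries and 2 tested genes, with a median of 0.01 and none past an unadjusted p under 0.05. These were RAPTOR1, the partner that brings TOR its substrates, at -0.12, and its relative RAPTOR2 at 0.14 (limma adjusted p = 0.88 and 0.79). Genes known to respond to energy shortage had 20 entries and 7 tested members, with a median of -0.06, no call and none past an unadjusted p under 0.05. The members with the smallest p were IVD, an enzyme of branched-chain amino acid breakdown, at 0.28 and the transcription factor gene BZIP53 at 0.19 (limma adjusted p = 0.67 and 0.72). None of these 12 genes passed with the replicate block or in replicates 2 and 3 alone. Of all tested probe sets 2.96% were called over all arrays, and 15.1% had an unadjusted p under 0.05. With the block 4.95% were higher and 1.69% lower, and in replicates 2 and 3 alone 9.72% and 9.26%. No call among so few genes therefore says little about these lists. Of 18 entries for trehalose phosphate metabolism none had a probe set of its own.

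The phosphate starvation list had 28 entries and 6 tested genes, with a median of 3.66. Of these, 5 were called higher and 1 lower, where 2.62% and 0.345% of all tested probe sets were. These 6 were known from earlier results of these data, so the count is no independent evidence of their direction. The largest differences were those of AT5G20790 (6.44), AT1G23140 (3.86), SAL2 (3.76) and AT3G43110 (3.57). The 4.26 of AT1G19200 falls between the first and second of these. The wild-type mean signals of AT5G20790 (8.83), AT1G23140 (14.5) and SAL2 (10.8) lay under the limit of 17.4. Like AT1G19200, these genes entered the tested set through their pho1 signals. Like AT1G19200, AT3G43110 had its smallest difference in replicate 1, at 2.32 against 3.93 and 4.47, whereas AT1G23140 was even over the replicates at 3.82, 3.87 and 3.90.

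The loci most like AT1G19200 were sought among tested probe sets with 1 gene, by the Pearson correlation of log2 values over the 6 arrays. They were AT2G15042, AT1G72890, AT5G20400, AT3G44510 and AT3G16670, with r from 0.9963 to 0.9994. Their log2 differences were 1.59, 2.93, 2.84, 3.15 and 1.08, each smallest in replicate 1. AT1G72890, for example, went from 46.1, 32.8 and 39.7 in wild type to 279.5, 383.5 and 453.4 in pho1. It repeats the order of the pho1 arrays seen for AT1G19200.

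For AT1G22160 the most like loci were AT1G52870, AT1G63770, AT3G17130, AT3G11560 and AT5G18370, with r from 0.988 to 0.996. AT1G52870 had signals of 1382.5, 1015.9 and 901 in wild type and 488.1, 280.2 and 318.1 in pho1, a log2 difference of -1.59. The array order is that of AT1G22160 in both groups, with replicate 1 highest and pho1 replicate 2 lowest. The other 4 had the same order with differences of only -0.50 to -0.29. All these values share the group difference that chose the pair and the same 6 arrays, so r is a description and carries no p.

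The nearest annotated genes with a probe set of their own were set beside each gene. Around AT1G19200, AT1G19190 (1.8 to 5.6) and AT1G19230 (7.8 to 19.1) were too dim to be tested. AT1G19170 differed by -0.07 and AT1G19210 by 0.15 (limma adjusted p = 0.90 and 0.81). Set beside the tested AT1G19170 and AT1G19210, AT1G19200 alone had a large difference. AT1G19170 lies 5 genes away and AT1G19230 lies 6 away. The genes between them and AT1G19200 were in part without a probe set of their own. Around AT1G22160, the genes after it differed the opposite way. AT1G22170, the next gene, had signals of 42.1, 38.2 and 36.7 in wild type and 86.1, 89.5 and 99.9 in pho1. It rose by 1.05 ± 0.15 (SE; limma adjusted p = 0.0091), higher in 3 of 3 replicate numbers. AT1G22180 differed by 1.09 (limma adjusted p = 0.079), with 0.28, 1.44 and 1.53 in replicates 1, 2 and 3, and passed in replicates 2 and 3 alone (1.49, limma adjusted p = 0.0017). On the other side AT1G22140 differed by -0.17 (limma adjusted p = 0.83), and the MADS-box gene AGL104, with signals of 1.8 to 19.1, was too dim to be tested.

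**Figure D4:**
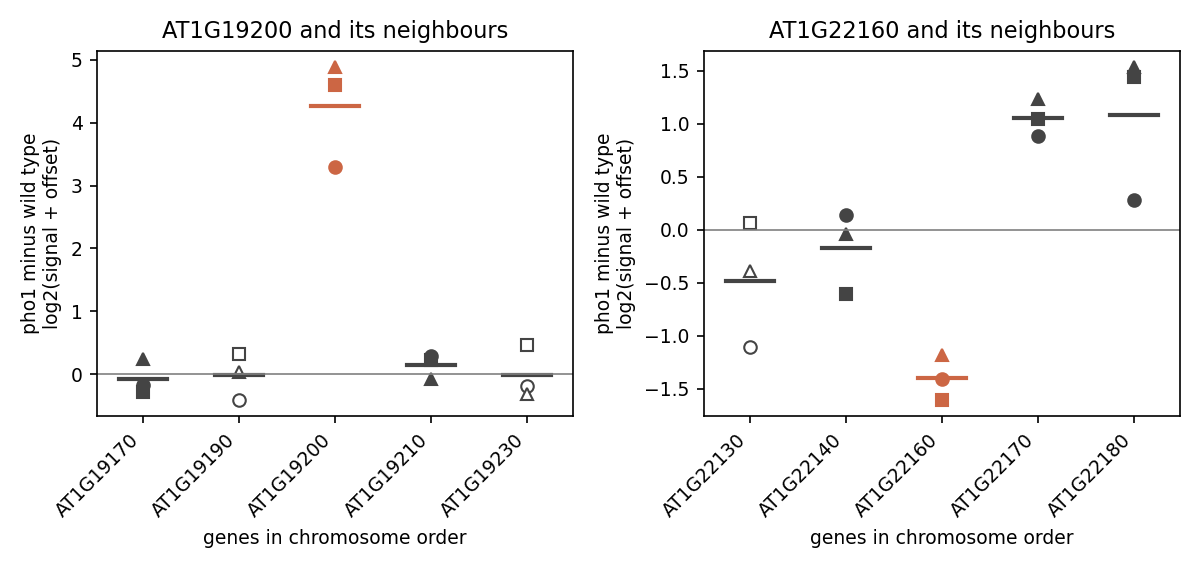
Difference between pho1 and wild type on the log2(signal + offset) scale for AT1G19200 (left) and AT1G22160 (right) in orange and for the nearest annotated genes with a probe set of their own, in chromosome order, with circles, squares and triangles for replicates 1, 2 and 3, bars for the difference of group means and open markers for genes too dim to be tested. AT1G19200 stands alone at 4.26, and AT1G22160 at -1.40 lies beside AT1G22170 at 1.05 and AT1G22180 at 1.09.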

How the data were processed

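The authors deposited 1 intensity value per probe set and array on a linear scale, and the submitters' processing notes name MAS5, without a version, as the tool. There were 22810 probe sets, 64 of them controls, and no columns of other samples. Trimmed means (2% left out at each end) were 100.01 on each array, so a common level had been set before deposit. Arrays were scaled to the mean of these values, with hardly any effect. An offset of 10% of that mean was added before log2 was taken. Without controls, 15922 probe sets reached the 30th percentile of mean log2 value and were tested (limma 3.58.1, R 4.3.3: lmFit, then eBayes with a trend on intensity, two-sided and without a block). Adjustment was by Benjamini-Hochberg over all of them, at a threshold of 0.05. The fit was also run on simulated data with independent noise for each array. Those data hold no deviation shared by same-numbered arrays, so the run cannot judge the fit on that point.

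Probe sets were named through the platform annotation and a RefSeq gene table of TAIR10.1, by which 13436 with 1 gene matched a locus. The pair, the gene lists and the alternatives were chosen with earlier results of these data known. The text names the pair, the other FLZ genes, up to 4 called members of each list or the 2 with the smallest p, the 5 most like loci of each gene and the 2 nearest named genes on each side. Like loci and the pair carry no p. Deviations of same-numbered arrays from their group means correlated at 0.42, 0.22 and 0.39 for replicates 1, 2 and 3, from which the pairing was taken; the labels give only the numbers. No detection calls were used, and 3 arrays per group limit the precision. Plots were drawn with matplotlib 3.10.9.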

Additional observations from a re-analysis of the deposited data

How the results depend on the processing

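The directions of both genes held under each of the 16 alternatives run for them. Both were chosen on this contrast and their groups do not overlap on these arrays. The sign was thus all but fixed in advance, and its holding is no support for it. The difference of AT1G19200 was 5.22 with an offset of 1% and 3.21 with one of 32%, as its wild-type signals lie near or under the offset, and 3.99 to 4.62 with 1 array left out. That of AT1G22160 lay between -1.61 and -1.17 in all. Of the other FLZ genes, none was called over all arrays, 5 with array weights, 2 with the replicate block, 6 in replicates 2 and 3 alone and 0 to 1 with 1 array left out. AT1G78020 was the 1 called, without wild type replicate 1 (-1.86, limma adjusted p = 0.017). Over all probe sets 472 were called, against 289 with no filter, 3789 with array weights, 1057 with the replicate block and 3021 in replicates 2 and 3 alone. That count ran from 161 to 1040 with 1 array left out: leaving out replicate 2 or 3 gave 182 or 303 for wild type and 161 or 162 for pho1, and leaving out replicate 1 of pho1 gave 1040. The cause was not tested. The replicate block changed no call of a gene named here other than AT1G78020 and AT2G44670 and the probe set shared by AT1G53903 and AT1G53885. Signals this close to the offset limit what can be said of AT1G19200 in wild type and of AT5G49120 in either group.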

Other observations

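The 7 tested genes of the energy starvation list split by replicate number. In replicate 1 all 7 were lower in pho1, by -0.75 to -0.14 on the log2 scale, where 51.7% of all tested probe sets were. In replicate 2, 6 of 7 were higher (median 0.29), where 8346 of all 15922 tested probe sets were. In replicate 3, 5 of 7 were higher (median 0.38), where 7309 of all tested probe sets were. Each of these counts rests on 1 array per genotype. AT3G15450, chosen here after its values were seen, had the highest signal of the tested list members on every array. Its own signals were highest on the replicate 1 arrays, at 1840.8 in wild type and 1412.1 in pho1. On the other arrays it was at 502.8 and 420.9 in wild type and 954.7 and 615.2 in pho1. Both replicate 1 arrays also lacked most of the spike-in signal, and the part of this in the split was not tested.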
